A study of Homo sapiens with 4 samples.

Results

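The keratin gene family was examined in SAS cells, an established line of human tongue squamous cell carcinoma, with and without knockdown of AEG-1 (gene symbol MTDH, also called LYRIC). With earlier results of these data known, genes were chosen by a rule on names. It took RefSeq symbols made of KRT, a number and at most 1 letter, which leaves out keratin-associated proteins and keratin pseudogenes. This gave 53 genes, read by 58 of the 34127 probes on the array, and 39 of these genes, read by 43 probes, were bright enough to be tested. KRT34 and KRT86 were not matched to a probe and were not analysed here.

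SB cells carry the lentiviral pLKO.1-LYRIC shRNA-B construct. Their controls, SCt cells, are described as pLKO.1 vector cells in the labels, while the methods of the study call the control shRNA scrambled. Both lines share the lentiviral transduction and the selection of stable clones with puromycin (2 μg/ml for 14 days), and 1 shRNA line was compared with 1 control line. On each of 4 two-colour arrays, RNA from SB cells (red dye) was hybridized together with RNA from SCt cells (green dye), and the labels call the arrays biological replicates without saying whether they came from separate cultures, so that p-values may measure technical spread only. With 0 dye-swapped arrays, a preference of a probe for one dye cannot be told apart from the knockdown.

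Keratins are the intermediate filament proteins of epithelial cells. A filament needs a type I and a type II keratin in equal amounts, and the pairs change with the state of the cell: KRT8 and KRT18 in simple epithelia, KRT5 and KRT14 in the basal layer of stratified epithelia, KRT1 with KRT10 or KRT4 with KRT13 above it, KRT6 with KRT16 or KRT17 under stress or in wounds, and a large group of hard keratins in the hair follicle. Squamous carcinomas keep basal and stress keratins and often gain simple ones, and for this reason keratins are used as markers of their differentiation.

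All values are log2 ratios of SB over SCt cells, so that a positive value means a higher level in SB cells. They were made from background-corrected intensities (normexp, offset 50, which makes the ratios of weak spots smaller) by a loess fit within each array. Where a gene had several tested probes, the brightest was used. The software called 85.4% to 90.3% of spots well above background in SB cells and 84.7% to 90.0% in SCt cells, with 0 saturated spots. Precision is limited by having 4 arrays. Across all tested probes, array 1 and array 4 correlated least with each other (Pearson r across probes 0.0459), and the other pairs of arrays had r from 0.322 to 0.461. MTDH had log2 ratios of −3.18, −3.01, −3.12 and −3.41 on arrays 1 to 4 (limma, adjusted p = 5.19e-10), the direction that the labels give.

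No keratin was past the threshold under the main processing. Of the 43 keratin probes tested, 0 had an adjusted p under 0.05 from limma, against 3.7% of all 28505 tested probes, of which 1.32% were higher and 2.38% lower in SB cells. The lowest adjusted p of the family was 0.106. At an unadjusted p under 0.05, limma found 7 of the 43 probes (16.3%), against 18.7% of all tested probes, and 7 of the 39 genes (17.9%), against 19.8% of 16582 named genes at their brightest probe. These were KRT18, KRT14, KRT81 and KRT39, with means above 0, and KRT19, KRT80 and KRT6A, with means below 0. By the methods' t-test 4 of the 43 probes were found at an unadjusted p under 0.05, against 13.8% of all tested probes, and 0 after adjustment. All 4 arrays shared a sign for 10 of the 43 probes (23.3%), against 26.5% of all tested probes.

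The mean log2 ratios of the 39 genes lay between −0.28 and 0.18, with 25 above and 14 below 0. Their median was 0.022, beside 0.0021 for the named genes, and their median size regardless of sign was 0.051, beside 0.068. The median SD between arrays was 0.12 for the keratins and 0.11 for the named genes. The 95% intervals of the 39 genes, taken 1 gene at a time, reached from −0.46 to 0.32 at their extremes, with a median half-width of 0.13. These intervals cover the spread between arrays under loess only, not the choice of normalization or a preference for a dye. With each array centred on its median in place of loess, KRT14 had a mean of 0.54, outside this range. A p over the threshold does not show that levels were equal.

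**Figure D1:**
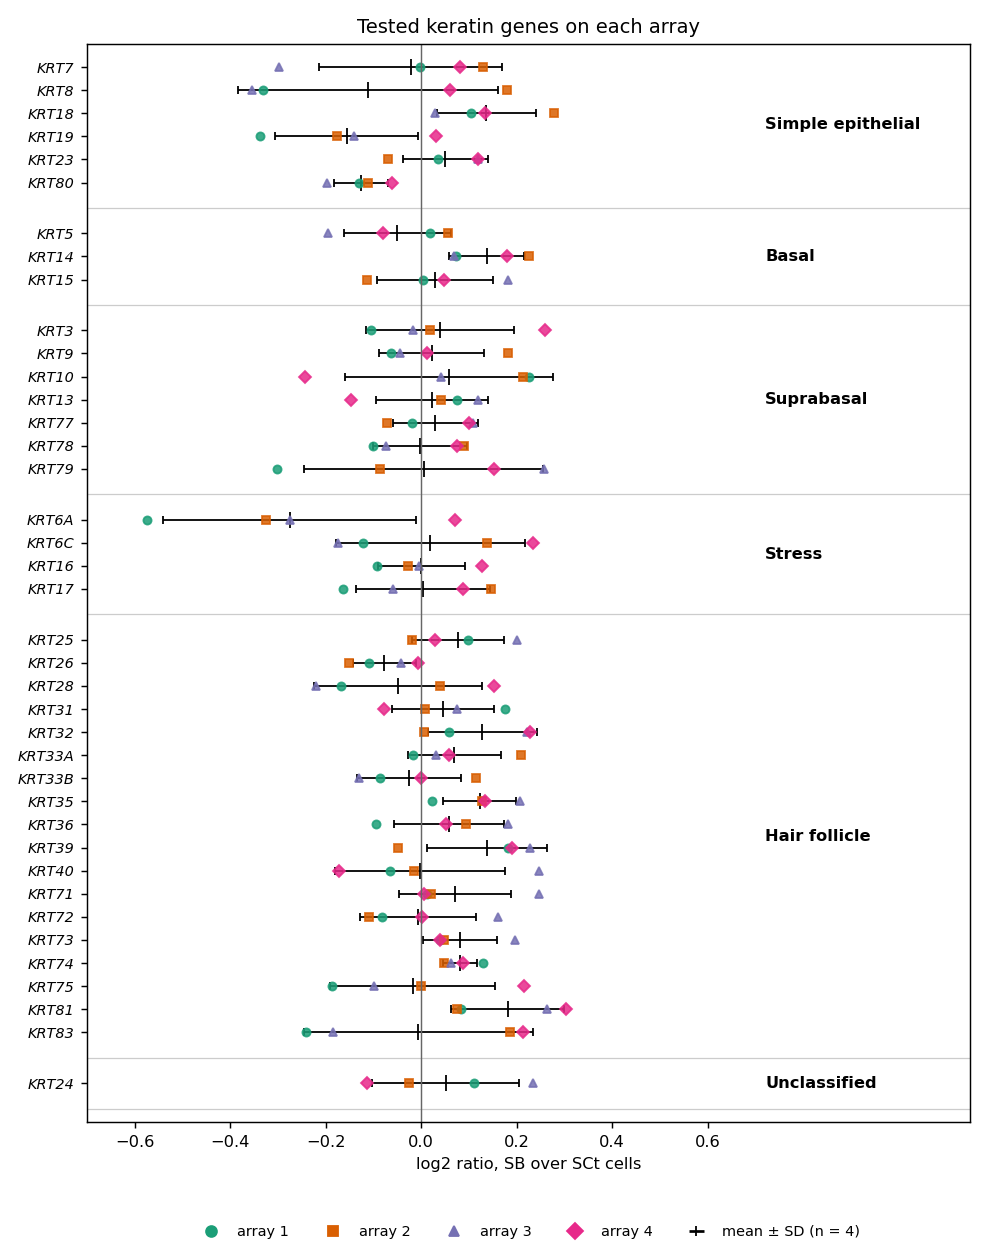
Log2 ratio of SB over SCt cells (x axis) for the 39 tested keratin genes (rows, grouped by class), with 1 symbol per array and a black bar for the mean ± SD over 4 arrays. The means lie between −0.28 (KRT6A) and 0.18 (KRT81), and for 29 genes the arrays fall on both sides of 0.

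The label of the cells was compared with markers. All 12 squamous epithelial markers other than keratins, among them CDH1, EPCAM, TP63, DSG3 and ITGB4, were well above background in both lines on all 4 arrays. The software's call is lenient, since 5 of 6 leukocyte markers, 4 of 5 endothelial markers and 3 of 7 fibroblast markers also passed in both lines on all 4 arrays, whereas COL3A1 and LUM passed on 0 arrays. A keratin that passed is therefore called measured here, not expressed. As the arrays read bulk RNA, fewer cells with a transcript and less of it per cell cannot be told apart.

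Of the 53 keratin genes, 9 were well above background in neither line on any array. These were KRT20, a keratin of the intestinal and urothelial lining, the suprabasal keratins KRT1, KRT2, KRT12 and KRT76, and the hair keratins KRT37, KRT38, KRT82 and KRT84. A further 5 genes passed on some arrays only. KRT4, the mucosal partner of KRT13, passed on 1 array in SB and 2 arrays in SCt cells. KRT6B and the hair keratin KRT27 each passed on 2 arrays in both lines, KRT85 on 3 arrays in SB and 2 in SCt cells, and KRT222 on 3 arrays in both. These 14 genes were not tested, and no fold change is given for them. KRT79 was tested only because its probe passed on 4 arrays in SCt cells, whereas it passed on 3 in SB cells. The other 42 tested probes passed in both lines on all 4 arrays.

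**Figure D2:**
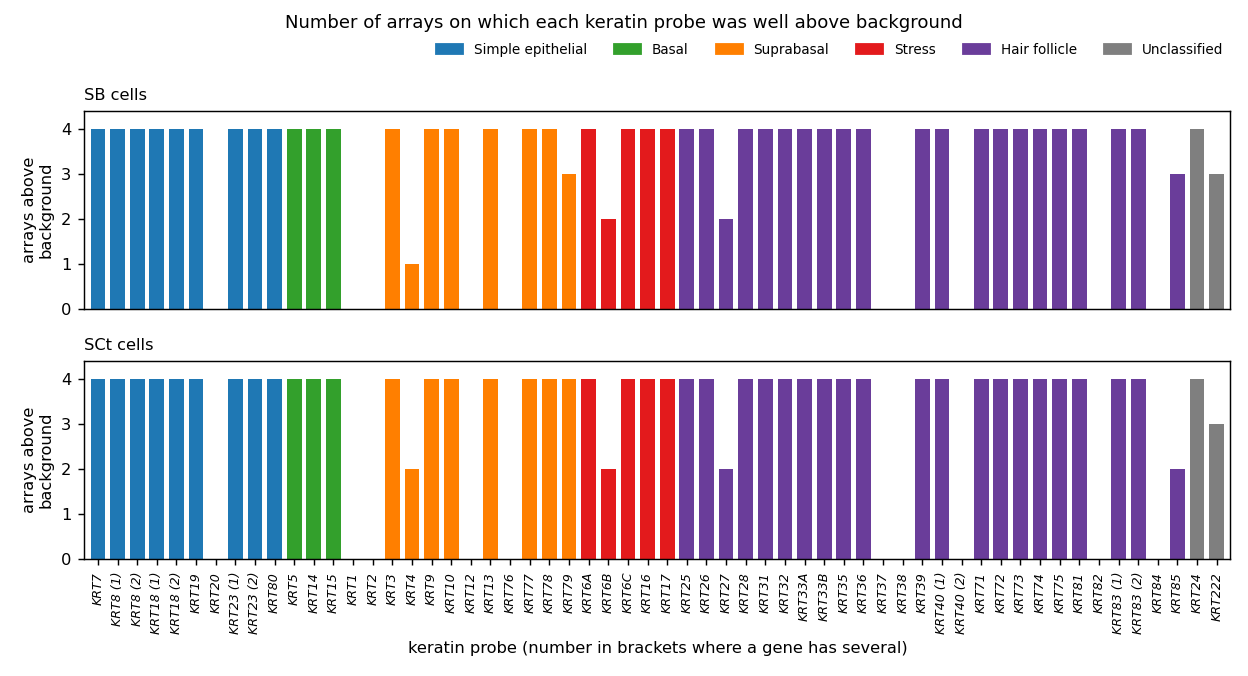
Number of arrays, from 0 to 4, on which each of the 58 keratin probes was well above background in SB cells (top) and in SCt cells (bottom), coloured by class. The 3 basal genes pass on 4 arrays in both lines, 9 genes pass on 0 arrays in both, and the lines differ by at most 1 array for any probe.

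The simple epithelial keratins were tested for 6 of their 7 genes, and 4 of the 6 were lower and 2 higher in SB cells in the mean. None was past the threshold in limma. The median of the class was −0.067 over the gene means, and its median on arrays 1 to 4 was −0.067, 0.030, −0.17 and 0.071, which spans 0. KRT8, the type II keratin of simple epithelia, had log2 ratios of −0.33, 0.18, −0.35 and 0.061 at its brightest probe. Arrays 1 and 3 were thus low and arrays 2 and 4 above 0, with a mean of −0.11 ± 0.27 (SD, n = 4 arrays; limma, adjusted p = 0.542). Its other probe had a mean of 0.016 ± 0.26. KRT18, the type I partner of KRT8, had 0.10, 0.28, 0.028 and 0.13 and was above 0 on all 4 arrays. The mean was 0.14 ± 0.10 (SD, n = 4 arrays; limma, adjusted p = 0.243), and the other KRT18 probe gave 0.045 ± 0.19, with arrays 1 and 3 below 0. Both genes have many processed pseudogenes in the genome, and how far the probes read those was not tested.

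KRT19, a type I keratin of simple epithelia that stratified epithelia also make in their basal layer, had −0.34, −0.18, −0.14 and 0.030, so that array 4 differed in sign from the rest. Its mean was −0.16 ± 0.15 (SD, n = 4 arrays; limma, adjusted p = 0.224). KRT80, a type II keratin of many epithelia, was below 0 on all 4 arrays, at −0.13, −0.11, −0.20 and −0.062 (limma, adjusted p = 0.245). Its arrays lay closer together than those of KRT8 or KRT19. KRT7, a type II keratin of glandular epithelia, had −0.0034, 0.13, −0.30 and 0.082 (limma, adjusted p = 0.904). KRT23, a type I keratin, had means of 0.051 ± 0.090 and −0.039 ± 0.14 at its 2 probes, on either side of 0.

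The basal keratins were measured for all 3 of their genes, with a class median of 0.018, 0.056, 0.068 and 0.047 on arrays 1 to 4. KRT14, the type I keratin of basal keratinocytes, was above 0 on all 4 arrays, at 0.073, 0.23, 0.068 and 0.18. Its mean of 0.14 ± 0.079 (SD, n = 4 arrays) had a 95% interval from 0.012 to 0.26 and an adjusted p of 0.220 from limma. KRT5, the type II partner of KRT14, had 0.018, 0.056, −0.19 and −0.079, with a mean of −0.050 ± 0.11 (SD, n = 4 arrays; limma, adjusted p = 0.717). KRT15, a type I keratin of basal and hair bulge cells, had 0.0041, −0.11, 0.18 and 0.047 (limma, adjusted p = 0.845). The arrays of KRT5 and KRT15 fell on both sides of 0.

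The suprabasal keratins were tested for 7 of their 12 genes, with means from −0.0026 to 0.059 and a median of 0.022. For 0 of the 7 genes did all 4 arrays share a sign. KRT10, the type I keratin of cornifying layers, had 0.22, 0.21, 0.042 and −0.24 and a mean of 0.059 ± 0.22 (SD, n = 4 arrays). KRT13, the type I keratin of mucosal stratified epithelia such as that of the tongue, had 0.075, 0.041, 0.12 and −0.15 and a mean of 0.022 ± 0.12. In both genes array 4 was the lowest and the only one below 0. The type II suprabasal genes KRT3, KRT77, KRT78 and KRT79 had means from −0.0026 to 0.039, and KRT79, the weakest of them, spread most over the arrays, from −0.30 to 0.26.

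The stress keratins were tested for 4 of their 5 genes. KRT6A, a type II keratin of wounded and hyperproliferative epithelium, had the lowest mean of the tested keratins. Its log2 ratios were −0.57, −0.33, −0.27 and 0.070 on arrays 1 to 4, with a mean of −0.28 ± 0.26 (SD, n = 4 arrays) and a 95% interval from −0.46 to −0.088. Arrays 1 to 3 were below 0 and array 4 was above, and the adjusted p from limma was 0.106. Without array 4 the mean was −0.39 and the adjusted p from limma was 0.000387, past the threshold, so that the call rests on whether this array is used. Without array 4, 6.94% of all tested probes were past it, and KRT6A was the only one of the 39 keratin genes. KRT6C, a close paralog of KRT6A and KRT6B, had −0.12, 0.14, −0.17 and 0.23 and a mean of 0.019 ± 0.20. The KRT6 paralogs are nearly identical in sequence, and how far each probe reads the others was not tested.

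KRT16, a type I partner of KRT6, had −0.092, −0.029, −0.0049 and 0.13, with a mean of 0.00051 ± 0.092 (SD, n = 4 arrays) and a 95% interval from −0.13 to 0.13. KRT17, the other type I keratin of this class, had −0.16, 0.15, −0.059 and 0.088, with a mean of 0.0032 ± 0.14. Neither mean exceeded the spread between arrays.

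The hair follicle keratins were tested for 18 of their 24 genes on the array, with means from −0.077 to 0.18 and a median of 0.064. Their median on arrays 1 to 4 was −0.0028, 0.031, 0.17 and 0.055, so that array 3 lay highest. All 4 arrays shared a sign in 7 of the 18 genes (38.9%), against 27.5% of the named genes. Above 0 on every array were KRT32 and KRT35, type I keratins of the hair shaft, KRT71, KRT73 and KRT74, type II keratins of the inner root sheath, and KRT81, and below 0 was KRT26. Most of these 7 genes were weak. On the weakest array and channel KRT26, KRT74, KRT35, KRT71 and KRT32 had 2.09, 2.22, 3.32, 8.34 and 8.46 times the local background. KRT73 had 35.4 and KRT81 had 156 times. With each array centred on its median in place of loess, the hair median was −0.0030, and KRT74 turned to −0.19 (limma, adjusted p = 0.0425). KRT81, a type II keratin of the hair cortex, was chosen after its values were seen because it had the highest mean of the tested keratins. It had 0.084, 0.076, 0.26 and 0.30 and a mean of 0.18 ± 0.12 (SD, n = 4 arrays; limma, adjusted p = 0.133). KRT83, its close paralog, had −0.24, 0.19, −0.19 and 0.21 at its brightest probe, and its probes had means of −0.0066 ± 0.24 and −0.0086 ± 0.25. The paralogs thus differed in pattern over the arrays, with KRT83 below 0 on arrays 1 and 3. Signals of the tested hair keratins ranged from 2.09 to 396 times the local background on the weakest array and channel of each probe, and whether the probes read hair keratins or related keratin transcripts was not tested. KRT24, a type I keratin placed in none of these classes, had 0.11, −0.027, 0.23 and −0.11, with arrays on both sides of 0 (limma, adjusted p = 0.735).

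By filament type, 17 of 22 tested type I genes (77.3%) and 8 of 17 tested type II genes (47.1%) had a mean above 0, beside 50.9% of the named genes. These shares are for loess only, and signs changed in both types with each array centred on its median. Of the type II genes, KRT5, KRT7 and KRT8 then turned to 0.27, 0.38 and 0.31, and KRT74 and KRT79 to −0.19 and −0.33. Of the type I genes, KRT19 turned to 0.018 and KRT31 to −0.21. The type I median was 0.013, 0.024, 0.071 and 0.049 on arrays 1 to 4, above 0 on each. The type II median was −0.10, 0.048, −0.073 and 0.082, low on arrays 1 and 3. Both values of arrays 1 and 3 lay below both values of arrays 2 and 4 in 8 type II genes, KRT7, KRT8, KRT80, KRT3, KRT78, KRT6C, KRT75 and KRT83, which were chosen after the values were seen. The share was 47.1% of type II genes, 31.8% of type I genes and 21.7% of all probes with values on 4 arrays. How far probes of related keratins read each other was not tested, so these 8 genes may not be independent. The opposite split, with arrays 1 and 3 above arrays 2 and 4, was found in 0 of 17 type II genes, 4 of 22 type I genes (18.2%) and 20.8% of all these probes. These shares are a description without a test.

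Both partners were tested in 3 of 7 filament pairs: KRT5 with KRT14, KRT8 with KRT18, and KRT6A with KRT16. In the other 4 pairs the probe of KRT1, KRT4, KRT12 or KRT6B was too weak. On each array the ratio of the type I partner was subtracted from that of the type II partner, so that a difference between arrays that affects both alike drops out. KRT5 minus KRT14 was −0.055, −0.17, −0.26 and −0.26, a mean of −0.19 ± 0.10 (SD, n = 4 arrays). KRT8 minus KRT18 was −0.44, −0.10, −0.38 and −0.073, a mean of −0.25 ± 0.19. KRT6A minus KRT16 was −0.48, −0.30, −0.27 and −0.057, a mean of −0.28 ± 0.17.

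The type II partner was thus lower relative to its type I partner on 4 of 4 arrays in these 3 pairs. The stress keratins can also combine in other ways, and with KRT6C as the type II partner this was not seen. KRT6C minus KRT16 was −0.031, 0.17, −0.17 and 0.11, a mean of 0.018 ± 0.15. KRT6C minus KRT17 was 0.040, −0.0091, −0.11 and 0.15, a mean of 0.016 ± 0.11. KRT6C was thus lower on 2 of 4 arrays against either partner. KRT6A minus KRT17 was −0.41, −0.47, −0.21 and −0.018, a mean of −0.28 ± 0.21, with array 4 near 0. In the stress class the difference was thus seen at the KRT6A probe and not at the KRT6C probe. How far these probes read each other's transcripts was not tested. These combinations were added after the values were seen. In an exact two-sided sign-flip test each of the first 3 pairs had a p of 0.125, the smallest that 4 arrays allow, so the differences cannot reach 0.05 by this test. The pairs share the same arrays and are not independent. The size for KRT8 and KRT18 depended on the probe: it was −0.029 ± 0.16 between their weaker probes, with KRT8 lower on 3 of 4 arrays. The differences were negative in each of the first 3 pairs under all 15 alternatives run. The range was −0.27 to −0.089 for KRT5 and KRT14 and −0.31 to −0.14 for KRT8 and KRT18. For KRT6A and KRT16 it was −0.44 to −0.21. Many of these alternatives could not change the sign. With all 4 arrays negative, leaving out any array had to give a negative mean. Changes to the filters on dim probes, the trend and robust options in limma and the methods' t-test left the mean differences as they were. The series table repeated the values of the scanner software's ratio, and the mean over probes changed only KRT8 and KRT18. A preference of single probes for a dye was not tested.

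**Figure D3:**
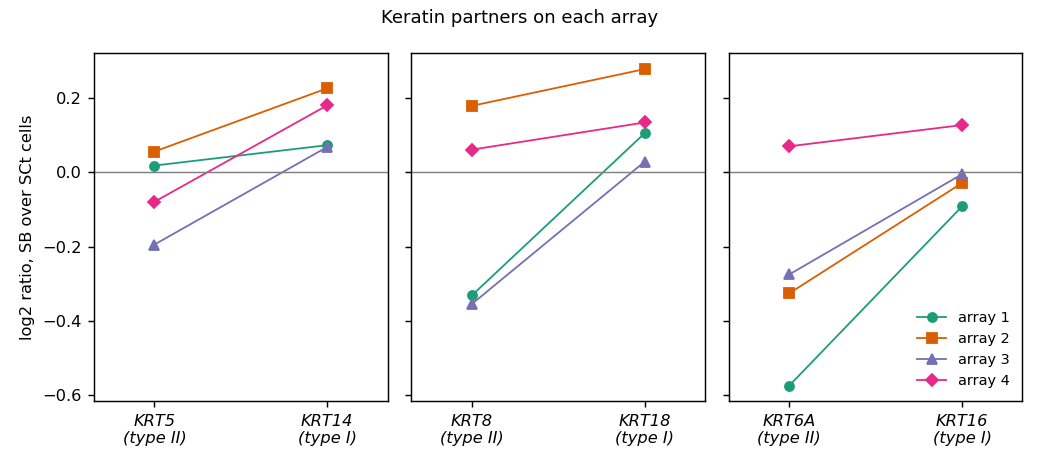
Log2 ratio of SB over SCt cells (y axis) of the type II and the type I partner of 3 keratin pairs, with 1 line per array. Each of the 4 lines rises from the type II to the type I partner in every panel, with mean differences of −0.19, −0.25 and −0.28.

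The direction of the brightest keratins depended on how dye and intensity were handled. With each array centred on its median in place of loess, 20 of the 39 keratin genes (51.3%) were past an adjusted p of 0.05 in limma. By probe it was 23 of 43 keratin probes, against 30.9% of all tested probes. Of all probes past the threshold 61.6% were higher in SB cells, and of the 20 keratin genes 15 were higher. The 5 lower ones were the hair keratins KRT26 (−0.35), KRT28 (−0.25), KRT31 (−0.21) and KRT74 (−0.19) and the suprabasal KRT79 (−0.33). KRT14 then had a log2 ratio of 0.54, KRT18 of 0.52, KRT7 of 0.38, KRT17 of 0.34 and KRT8 of 0.31. The same shift was measured in bright probes of other genes: 1967 tested probes that are not keratins and had a mean log2 intensity of 14 or more had a median of 0.28 under median centring and of 0.0025 under loess. The 10 keratin probes of that brightness had medians of 0.31 and 0.0019. Under median centring 78.7% of the 1967 other probes and all 10 keratin probes were past the threshold.

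Under the other alternatives, leaving out array 4 aside, 0 keratin genes were past the threshold. By the scanner software's own ratios, under which KRT7 had −0.17, KRT8 −0.25 and KRT14 −0.0073, 2.65% of all tested probes were past it, and by the table deposited for the whole series 2.43%. Without background correction it was 3.82%, with normexp without an offset 2.87%, with outlier spots kept 3.49% and with trend and robust options in limma 2.03%. With no filter on dim probes, where all 53 keratin genes entered the fit, it was 3.28%. Without array 1 it was 2.24%, without array 2 1.48% and without array 3 0.717%.

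**Figure D4:**
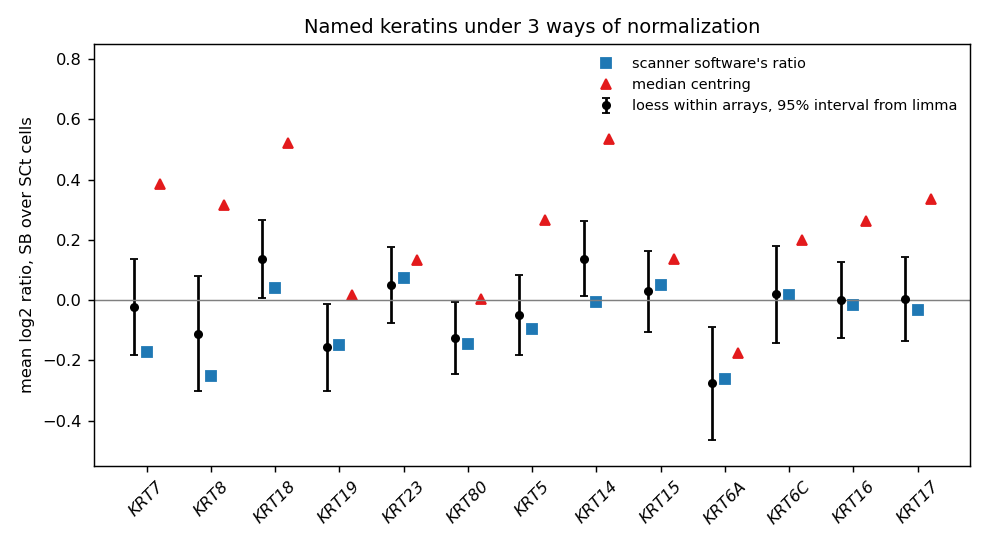
Mean log2 ratio of SB over SCt cells (y axis) of the 13 named simple, basal and stress keratins, with loess (black, bars are 95% intervals from limma), the scanner software's ratio (blue) and median centring (red). Median centring lies above loess for all 13 genes, at 0.54 for KRT14 and −0.17 for KRT6A.

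Genes that work with keratins were examined from 3 lists. Of 51 genes tested, 6 fell in SB cells and 0 rose at an adjusted p under 0.05 from limma. This is 11.8% of the lists, against 4.19% of the named genes in either direction and 2.97% lower. By list it was 19% of the regulators, 5.26% of the linkers and binding proteins and 9.09% of the other intermediate filament genes. The lists were chosen with earlier results of these data known, so these shares are a description without a test. The median of the lists was −0.054, with 21 genes above and 30 below 0. Under median centring 11 genes of the lists were past the threshold, 5 of them higher and 6 lower, so that the single direction was lost. Without array 3, 0 genes of the lists were past the threshold, and without array 2 it was 2 genes. By the methods' t-test it was 0 genes, as for all probes.

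Of the 21 regulators of keratin genes, 4 fell. EHF and ELF3 are ETS factors of epithelia, TFAP2A is AP-2 alpha, whose binding sites lie in many keratin promoters, and KLF5 is a factor of proliferating basal cells. EHF had log2 ratios of −0.60, −0.80, −0.69 and −0.30, all below 0, with a mean of −0.60 ± 0.22 (SD, n = 4 arrays; limma, adjusted p = 0.00148). ELF3 had −0.36, −0.58 and −0.31 on arrays 1 to 3, its spot on array 4 being left out as an outlier (limma, adjusted p = 0.0124). With outlier spots kept, the ELF3 mean was −0.33 in place of −0.42 (limma, adjusted p = 0.0457). By the series table it was −0.28 (limma, adjusted p = 0.182). TFAP2A had −0.15, −0.43, −0.55 and −0.51, with array 1 nearest to 0 (limma, adjusted p = 0.00812). KLF5 had −0.35, −0.31, −0.43 and −0.059, with array 4 nearest to 0 (limma, adjusted p = 0.0378). Of 15 alternatives, EHF and TFAP2A were past the threshold in 13 each, ELF3 in 10 and KLF5 in 6. Under median centring ELF3 had −0.16 and KLF5 −0.13, whereas EHF had −0.58 and TFAP2A −0.42. TP63, the master factor of stratified epithelia, had −0.050, −0.15, 0.015 and −0.061 (limma, adjusted p = 0.609).

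Of the 19 linkers and binding proteins, 1 fell (5.26%), near the 4.19% of the named genes called in either direction (2.97% lower). This was DNAJB6, a chaperone that binds KRT18. Its brightest probe had −0.12, −0.20, −0.41 and −0.35 (limma, adjusted p = 0.0394), and its other probes had −0.15 and −0.064 and were not past the threshold. It was past the threshold in 6 of 15 alternatives, and under median centring it had −0.065 and as the mean over probes −0.16. DST, a plakin that ties keratin to hemidesmosomes, had −0.13 at its brightest probe (limma, adjusted p = 0.264). Of the other DST probes, 1 fell, at −0.34 (limma, adjusted p = 0.0270), and 1 had −0.24 (limma, adjusted p = 0.151).

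Of 11 other intermediate filament genes tested, 1 fell (9.09%), against 4.19% of the named genes called in either direction and 2.97% lower. This was SYNM. It encodes synemin, a filament protein of muscle and of some other cells, and had −0.34, −0.44, −0.48 and −0.085 (limma, adjusted p = 0.0218), and it was past the threshold in 11 of 15 alternatives. Its size depended on the processing: it was −0.71 by the scanner software's ratio and by the series table, and −0.56 under median centring and for normexp without an offset. VIM, the vimentin gene of mesenchymal cells, had −0.53, 0.13, −0.30 and 0.086 and a mean of −0.15 ± 0.32 (SD, n = 4 arrays; limma, adjusted p = 0.430). Arrays 1 and 3 were below 0 and arrays 2 and 4 above, as for KRT8.

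**Figure D5:**
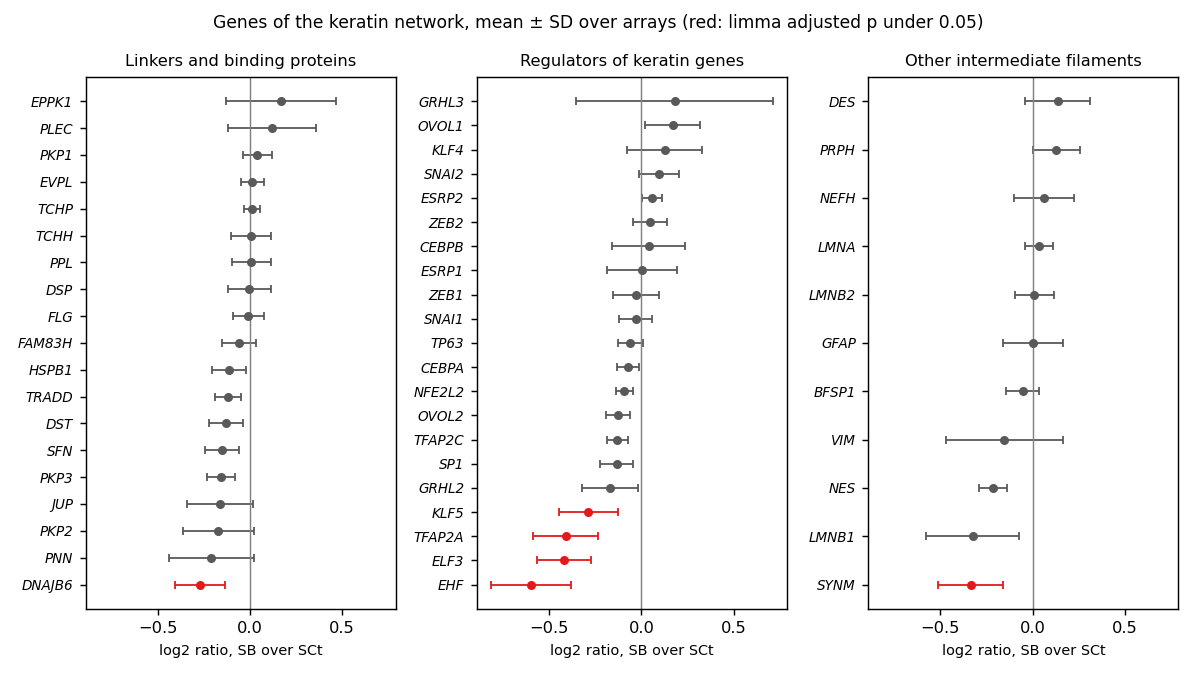
Mean log2 ratio of SB over SCt cells (x axis) ± SD over arrays for 19 linkers and binding proteins, 21 regulators and 11 other intermediate filament genes (rows), each at its brightest probe. The 6 genes in red were past an adjusted p of 0.05 in limma, and all 6 lie below 0, the lowest being EHF at −0.60.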

How the data were processed

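For each array the authors deposited scanner output of Agilent Feature Extraction 10.5.1.1, which gives the red and green median intensities of every spot and of the area around it, not normalized. The same deposited files hold a log10 ratio that the software had background-subtracted and dye-normalized, and flags for spots. The authors also deposited a table on a log2 scale. For 97.6% to 97.9% of probes on an array its values lay within 0.001 of the ratio of the software's processed signals.

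Intensities were background-corrected by normexp (offset 50) in limma 3.58.1 (R 4.3.3). Control and outlier spots (814 to 1168 outliers per array) had no weight in the loess fit and were dropped, and spots of a probe were averaged. A probe was tested where most of its spots passed the software's background flag in 1 of the channels on every array, with values on at least 2 arrays. lmFit and eBayes tested the mean against 0, with Benjamini-Hochberg adjustment over 28505 tested probes. The steps were run on simulated arrays with independent noise and known changes larger than any keratin mean under loess. This run does not show whether changes as small as those of the keratins would be found. Symbols came from RefSeq (GRCh38.p14) through each probe's accession, with 24826 probes matched and 9301 not. The array design refers to hg19, so no positions are given. All arrays may lie on 1 slide. Alternatives changed the source of the ratio, the background correction, the normalization, the filters, the test, the probe rule and the arrays used.

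Named are the tested simple, basal and stress keratins, the partners of each tested pair, keratins past the threshold, and genes of the other lists past it. Other genes were named after their values were seen. The members and lists were chosen with earlier results of these data known, and the alternatives for the pair differences were chosen after seeing the data.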

Additional observations from a re-analysis of the deposited data

How the results depend on the processing

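Under 15 alternatives, 13 named keratins gave 195 values, of which 9 were past an adjusted p of 0.05, 8 under median centring and 1 without array 4. Median centring moved the count of keratin probes past the threshold from 0 to 23, of keratin genes from 0 to 20, of all probes from 1055 to 8817 (61.6% of them higher, against 35.6%), and of genes in the other lists from 6 (0 higher) to 11 (5 higher). It moved the class medians to 0.22 (simple), 0.27 (basal), 0.14 (suprabasal) and 0.23 (stress) and turned that of the hair class from 0.064 to −0.0030. It also turned KRT7 to 0.38, KRT8 to 0.31, KRT5 to 0.27, KRT19 to 0.018 and KRT80 to 0.0039. The software's ratios turned KRT14 and the basal median to −0.0073, KRT16 to −0.017 and KRT17 to −0.034. The series table gave these values too, with 698 probes and 3 genes of the other lists past the threshold. KRT16 was −0.00016 with no background correction, −0.0027 for normexp without an offset and −0.0030 with outlier spots kept. KRT17 was −0.0036 for normexp without an offset and −0.00037 with outlier spots kept. Trend and robust options left 579 probes, and the methods' t-test left 0 probes, 0 genes of the other lists and MTDH (−3.18) at an adjusted p of 0.143. The cause was not tested.

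Leaving out 1 array at a time gave 204 (without array 3) to 1977 (without array 4) probes past the threshold, with 638 without array 1 and 421 without array 2. It gave 0 to 1 keratin probes, 0 to 1 keratin genes and 0 to 7 genes of the other lists. The class medians ranged from −0.10 to −0.0012 (simple), −0.0016 to 0.077 (basal), 0.0061 to 0.046 (suprabasal), −0.047 to 0.045 (stress) and 0.035 to 0.077 (hair). KRT8 ranged from −0.21 to −0.030, KRT5 from −0.085 to −0.0016, KRT7 from −0.073 to 0.069, KRT15 from −0.021 to 0.077, KRT6C from −0.053 to 0.083, KRT16 from −0.042 to 0.031 and KRT17 from −0.045 to 0.059. Both lines lie on each array, and the fit on ratios already uses that pairing, so no further paired analysis was run. No block for the slide was fitted, since all arrays may lie on 1 slide.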
